A study of Rattus norvegicus with 10 samples.

Results

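The genes of the splicing machinery and of the heterogeneous nuclear ribonucleoproteins (hnRNPs) were taken as every probe set annotated with exactly 1 gene symbol beginning with Srsf, Hnrnp, Sf3, U2af, Prpf, Snrnp, Rbm, Cwc, Tra2, Celf, Mbnl or Khdrbs. The rule found 202 of 31042 probe sets, for 112 of the 14217 genes that carried a single symbol. A further 7 probe sets carried several symbols of which 1 fitted, and these were not used. The prefixes also took in the pseudogene Srsf7-ps4 and genes known for other functions, such as Rbm47, a cofactor of RNA editing. Membership was set by name and not by a measured value, but the prefixes were chosen with earlier results of these data known.

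Splicing removes introns from a primary transcript in the spliceosome, which is assembled from small nuclear ribonucleoproteins and many associated proteins. The Sf3, Snrnp, Prpf and Cwc genes encode parts of that machinery, and the U2af genes encode the factor that reads the end of the intron. The Srsf and Tra2 proteins mostly promote the use of an exon, hnRNPs often restrain it, and Celf, Mbnl, Khdrbs and several Rbm proteins set alternative splicing in particular tissues, with much of it in brain.

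The question of the study was whether mastication at weaning changes the hippocampus, which spatial memory needs. Affymetrix whole-genome rat arrays measured its messenger RNA in 10 male Wistar rats, 1 array for each rat. In the C-group, 5 rats (C1 to C5) ate solid chow, and in the P-group 5 (P1 to P5) ate a powdered diet, in both cases for 8 days from an age of 3 weeks, and the labels give 4 weeks as the age of every sample. All rats of both groups had first taken powdered feed for a short acclimatization, and the hippocampi were dissected by hand, so that tissue next to the hippocampus could enter a sample. In such bulk tissue, fewer cells of a type and less RNA per cell cannot be told apart.

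All values are log2 expression values as deposited, and a difference is the C-group mean minus the P-group mean. The summarization used by the authors (qFARMS) gives a probe set almost the same value on every array when its probes do not vary together. A probe set is called variable here when its standard deviation (SD) over the 10 rats was above 0.01 and constant otherwise. The levels of different probe sets are not compared, since each hybridizes in its own way. The hippocampal neuron markers were present, with Nrgn between 12.05 and 12.09. The variable probe set of Prox1, which marks dentate granule cells, ran from 9.13 in C1 to 9.73. Some markers differed more between rats. Wfs1 was 7.63 in C1 and 8.22 to 8.83 in the others. Neurod6 was 9.82 in C2 and 10.43 to 10.72 in the others. Fibcd1 was instead highest in C1, at 8.33. The mean deviation of the variable markers ran from -0.08 to 0.18 in the C-group and from -0.14 to 0.05 in the P-group. By rank products (below), 2 marker genes were called higher in the C-group and 1, Neurod6, lower. Rat C1 stood apart. In 53.5% of the 2904 variable probe sets of the whole array it was the highest rat, and in 22.1% the lowest. Each result below that rests on C1 is therefore given with and without it. Rat P2 carried pineal and photoreceptor transcripts, with a mean of its variable markers 2.17 above the mean of all rats, against -0.28 to -0.19 in the others. Of the 10 marker genes measured, 9 had a variable probe set, and Aanat was constant, at 6.62 in every rat.

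Of the 202 probe sets, 28 (13.9%) were variable, against 9.36% of all probe sets, and they belonged to 23 of the 112 genes (20.5%, against 12.6% of all genes). The SD of the variable ones ran from 0.0164 in Prpf39 to 0.674 in a probe set of Rbm47, with a median of 0.222. The other 174 probe sets were constant, with a median SD of 0.000181 and a highest of 0.000665. Their differences between the groups ran from -0.000448 to 0.00041. For these 89 genes without a variable probe set, the array values carry almost no information on the diet.

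By family, the Rbm genes gave 8 variable probe sets of 69, the Hnrnp genes 6 of 31, the Prpf genes 4 of 19 and the Sf3 genes 3 of 13. The Srsf (20 probe sets), Celf (13), Snrnp (10), Mbnl (9), Khdrbs (4), Tra2 (4) and Cwc (4) genes gave 1 each, and the U2af genes none of 6. Snrnp70, the variable member of its family, encodes a protein of the U1 particle that recognizes the start of the intron. Snrnp70 had a mean of 9.97 in the C-group and 9.90 in the P-group, and the values of the groups overlapped.

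**Figure D1:**
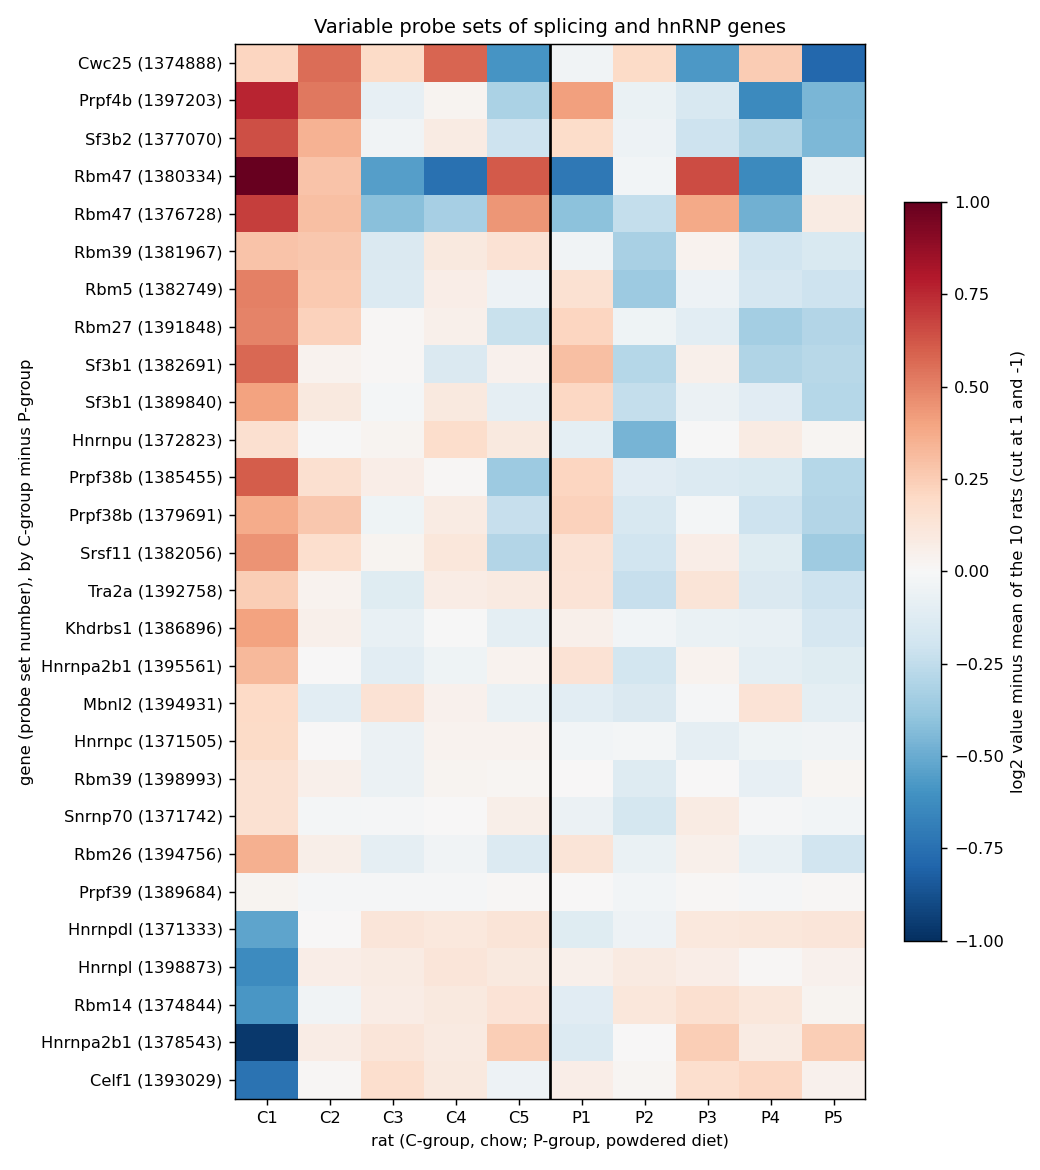
The 28 variable probe sets (vertical axis, gene and probe set number, ordered by the C-group minus P-group difference) in each of the 10 rats (horizontal axis). Red is above and blue below the probe set's mean over the rats on the log2 scale, with colors saturating at 1 unit. The column of C1 is the reddest in most lines and the bluest in the bottom 5, which are Hnrnpdl, Hnrnpl, Rbm14, Hnrnpa2b1 and Celf1.

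The groups were compared by rank products, the method named by the study, which takes all 25 pairs of a rat from either group, ranks their differences over all probe sets and averages the ranks geometrically. It called 10 of the 202 probe sets higher in the C-group at a false discovery rate (FDR) under 0.05, against 2.0% of all probe sets. All 10 were among the 28 variable ones (35.7%), and 21.3% of all variable probe sets were called higher. They belonged to 9 genes, namely Cwc25, Prpf4b, Sf3b2, Sf3b1, Rbm39, Rbm5, Rbm27, Rbm47 and Hnrnpu. None of the members was called lower, against 0.416% of all probe sets and 4.44% of the variable ones.

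By limma, none of the 202 passed an adjusted p of 0.05 (0.00% of all probe sets passed), and the lowest adjusted p was 0.927. At an unadjusted limma p under 0.05 there were 3 of 202 (1.49%), against 2.95% of all probe sets. These were Rbm39 and constant probe sets of Srsf3 and Hnrnpa2b1, which differed by -0.000106 and -0.000432. Among the variable members Rbm39 was the only one of 28 (3.57%), against 1.14% of the variable probe sets. In the other probe sets called by rank products, the unadjusted limma p ran from 0.0961 (Hnrnpu) to 0.471 (Rbm47 1380334_at). No member had groups that did not overlap, which held for 0.445% of all probe sets and 0.207% of the variable ones. The rank products calls also depended on which probe sets were ranked. When only the 2904 variable probe sets were ranked, no member was called, and 9 were called over the whole array. Without C1, 1 member was called higher, without C2 2 and without P4 6, and leaving out P1 or P3 gave 15. The calls over all 31042 probe sets moved in the same direction. They were 620 with all rats, 61 without C1, 110 without C2 and 409 without P4. Without P1 they were 789 and without P3 699.

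Among the 28 variable members, 23 were higher and 5 lower in the C-group (82.1% higher), with a median difference of 0.15 and a range from -0.21 to 0.38. Over all variable probe sets 68.3% were higher in the C-group, with a median of 0.07. Without C1, 25 of the 28 were higher and the median was 0.06, against 0.04 over all variable probe sets. The highest of the 10 rats was C1 in 21 of the 28 (75.0%), and C1 was the lowest in the 5 that were lower in the C-group. Elsewhere the lowest rat was most often P2, in 9 (32.1%), followed by P5 in 7 and P4 in 4.

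Cwc25, which the spliceosome needs for the first catalytic step, had the largest difference of the members, and was the only member whose call was kept whichever rat was left out. Cwc25 was 7.30 in C1, 7.65 in C2, 7.28 in C3, 7.67 in C4 and 6.50 in C5, and 7.05 in P1, 7.28 in P2, 6.51 in P3, 7.34 in P4 and 6.30 in P5. Rats C5, P3 and P5 sat low and the other 7 high, so the groups overlapped widely. The difference was 0.38 (standard error 0.29, n = 5 rats in each group, unadjusted limma p 0.22, rank products FDR 0.002). It was 0.38 without C1 as well (FDR 0.0175). Without C5 it was 0.58 and without P5 0.23.

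Prpf4b, a kinase that phosphorylates spliceosomal proteins, was 9.58 in C1, 9.35 in C2, 8.74 in C3, 8.85 in C4 and 8.50 in C5. In the P-group it was 9.23 in P1, 8.75 in P2, 8.66 in P3, 8.18 in P4 and 8.36 in P5. C1, C2 and P1 were the 3 highest rats and P4 and P5 the lowest, with the other rats mixed between them. The difference was 0.37 (standard error 0.26, FDR 0.0068), falling to 0.22 without C1 (FDR 0.0565), and the call was also lost without C2.

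Sf3b2 and Sf3b1 encode subunits of the SF3b complex, which binds the branch site of the intron as a part of the U2 particle. Sf3b2 was 9.42 in C1, 9.13 in C2, 8.74 in C3, 8.86 in C4 and 8.57 in C5, and 8.96 in P1, 8.73 in P2, 8.57 in P3, 8.48 in P4 and 8.33 in P5. The order was close to that of Prpf4b, with C1, C2 and P1 at the top and P4 and P5 at the bottom. The difference of Sf3b2 was 0.33 (standard error 0.18, FDR 0.00742), and without C1, the only rat on which its call depended, it was 0.21 (FDR 0.0543).

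Sf3b1 had a pair of variable probe sets. Probe set 1389840_at was 9.54, 9.23, 9.12, 9.23 and 9.05 in C1 to C5 and 9.34, 8.90, 9.08, 9.02 and 8.85 in P1 to P5, a difference of 0.20 (standard error 0.12, FDR 0.0327). Probe set 1382691_at was 7.78, 7.24, 7.22, 7.06 and 7.25 in C1 to C5 and 7.51, 6.92, 7.26, 6.91 and 6.93 in P1 to P5, a difference of 0.20 (standard error 0.17, FDR 0.0548) that was not called. In both, C1 was the highest rat and P1 the highest of the P-group, while P2, P4 and P5 lay below every rat of the C-group. Without C1 the differences were 0.12 (FDR 0.123) and 0.09 (FDR 0.244). The call of 1389840_at was kept only without C5, P1 or P3, and was lost without each of the other 7 rats.

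**Figure D2:**
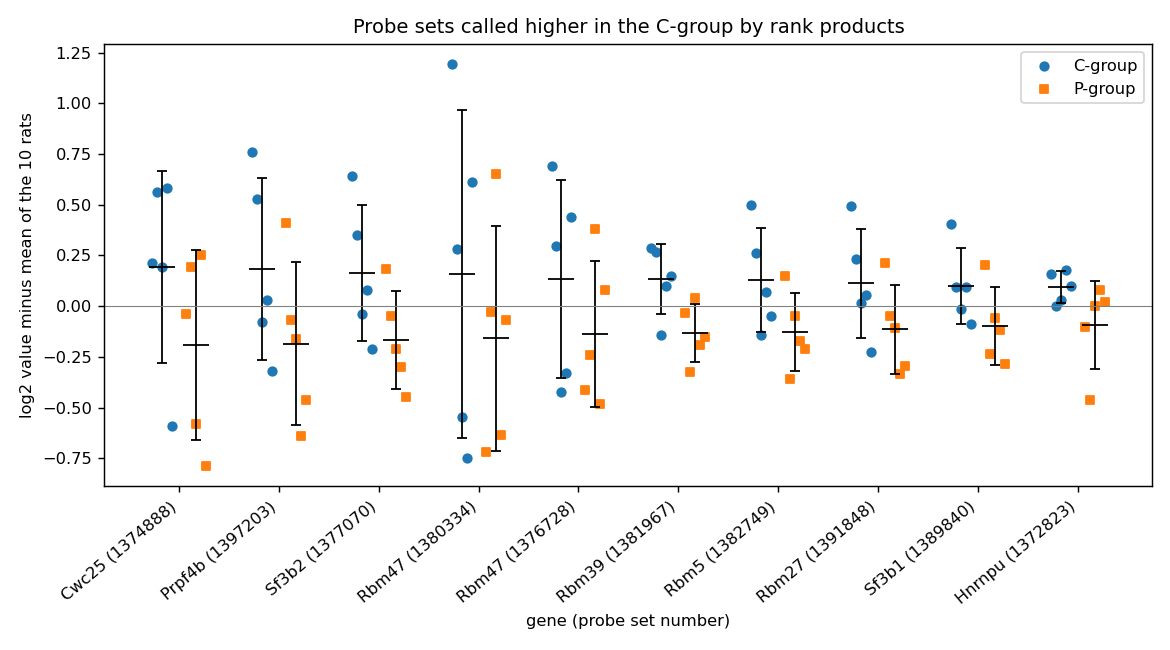
The 10 probe sets called higher in the C-group by rank products (horizontal axis) with 1 point per rat, as the log2 value minus the probe set's mean over the 10 rats (vertical axis). Circles are the C-group, squares the P-group, and black bars the group mean with its SD (n = 5). The groups overlap in every probe set, and Cwc25 has the largest difference, 0.38.

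Of the other Prpf genes, Prpf38b, a pre-mRNA processing factor, had a pair of variable probe sets that differed by 0.19 (1385455_at, FDR 0.0511) and 0.18 (1379691_at, FDR 0.0577), and neither was called. Probe set 1385455_at was 7.83, 7.39, 7.29, 7.24 and 6.86 in C1 to C5 and 7.44, 7.11, 7.09, 7.07 and 6.94 in P1 to P5. Probe set 1379691_at was 8.17, 8.07, 7.76, 7.88 and 7.57 in C1 to C5 and 8.03, 7.64, 7.78, 7.59 and 7.51 in P1 to P5. C1 was the highest rat in both, and C5 and P5 were the lowest pair, so the groups overlapped. Without C1 the differences were 0.06 and 0.11. Prpf39, which is associated with the U1 particle, ran only from 8.81 to 8.87.

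The Rbm genes encode proteins with an RNA recognition motif. Rbm39, a splicing factor related to the large U2af subunit, was 10.65, 10.63, 10.22, 10.46 and 10.51 in C1 to C5 and 10.33, 10.04, 10.40, 10.17 and 10.21 in P1 to P5 (probe set 1381967_at). Here 4 of the 5 rats of the C-group lay above every rat of the P-group, and C3 lay among the P-group. The difference was 0.26 (standard error 0.10, FDR 0.0117), and without C1 it was 0.22 (FDR 0.0509). Its limma p-value was 0.0257 unadjusted and 0.927 adjusted. The call was lost without C1 or C2.

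The second variable probe set of Rbm39, 1398993_at, was 10.39, 10.29, 10.18, 10.27 and 10.26 in C1 to C5 and 10.24, 10.11, 10.24, 10.16 and 10.26 in P1 to P5. The order of the rats was similar to that of 1381967_at, within a narrower range. The difference was 0.07 (standard error 0.04, FDR 0.0612), which was not called, and it was 0.05 without C1.

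Rbm5, a regulator of alternative splicing of apoptosis genes, was 9.88, 9.64, 9.24, 9.45 and 9.33 in C1 to C5 and 9.53, 9.02, 9.33, 9.21 and 9.17 in P1 to P5. C1 and C2 were the only rats above every rat of the P-group. The difference was 0.26 (standard error 0.14, FDR 0.0186), and it was 0.17 without C1 (FDR 0.0854). The call was also lost without C2.

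Rbm27 was 8.35, 8.09, 7.87, 7.91 and 7.63 in C1 to C5 and 8.07, 7.81, 7.75, 7.52 and 7.56 in P1 to P5. As in Prpf4b and Sf3b2, the 3 highest rats were C1, C2 and P1 and the lowest were P4 and P5. The difference was 0.23 (standard error 0.15, FDR 0.0251), and it was 0.13 without C1 (FDR 0.10), with the call also lost without C2, C4, P4 or P5.

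Astrocyte markers were read beside these genes, as a comparison chosen after their values were seen. All 8 astrocyte genes of the list were measured, 5 of them with a variable probe set, and no marker was at 0. Of their 15 probe sets only 5 were variable, and Aqp4, Gja1 and Slc1a3 each had constant ones as well. Their mean deviation was 0.34 in C1, 0.17 in P1 and 0.14 in C2, the 3 highest rats, and -0.23 in P5 and -0.27 in P4, the lowest. Across the groups it ran from -0.06 to 0.34 in the C-group and from -0.27 to 0.17 in the P-group. Rank products called 4 of the genes higher (4 of 15 probe sets, against 2.0% of all). Without C1 their differences fell from 0.32 to 0.12 (Aqp4), 0.27 to 0.13 (Slc1a3), 0.25 to 0.19 (Gjb6) and 0.22 to 0.13 (Gja1). The markers did not move as 1 in C1. There Aqp4, the astrocyte water channel, was 10.04 (8.40 to 9.65 in the other rats). Gfap, the astrocyte filament protein, was 10.71 (11.42 to 11.59 in the others). The part of astrocytes in the values of Prpf4b, Sf3b2 and Rbm27 was not tested.

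Rbm47, an RNA-binding protein known as a cofactor of APOBEC-type RNA editing, had the largest SD of the members and was the only one with several probe sets of which every one was variable. Probe set 1380334_at was 7.53, 6.62, 5.79, 5.59 and 6.95 in C1 to C5 and 5.62, 6.31, 6.99, 5.70 and 6.27 in P1 to P5. Probe set 1376728_at was 7.54, 7.15, 6.43, 6.52 and 7.29 in C1 to C5 and 6.44, 6.61, 7.23, 6.37 and 6.93 in P1 to P5. The high rats, C1, C2, C5 and P3, came from both groups, and so did the low rats C3, C4, P1 and P4.

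The differences of Rbm47 were 0.32 (standard error 0.42, FDR 0.0212) and 0.27 (standard error 0.26, FDR 0.0267), both called. Without C1 they were 0.06 (FDR 0.182) and 0.13 (FDR 0.139), and the calls of both were also lost without C2, C5 or P4. The first difference was smaller than its standard error and the second close to it.

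Rbm47 followed the markers of the choroid plexus, the secretory epithelium of the ventricles that lies against the hippocampus. Of 24 marker genes 21 were measured, 18 of them with a variable probe set. Rank products called 2.0% of all probe sets higher in the C-group, and 20 of the 28 probe sets of these markers (16 genes). The mean deviation of their 22 variable probe sets was 1.24 in C1, 0.67 in C2, -0.65 in C3, -0.79 in C4 and 0.84 in C5, and -0.88 in P1, -0.57 in P2, 0.82 in P3, -0.75 in P4 and 0.05 in P5. Ttr, the defining marker, ran from 7.40 in P1 to 13.60 in C5. Without C1 the difference of Ttr fell from 1.34 (standard error 1.46) to 0.95 and that of Folr1 from 0.71 to 0.34. The differences of the other called markers also fell.

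From the highest down, the first 6 rats of the marker mean were C1, C5, P3, C2, P5 and P2. They were the same in the same order for 1376728_at, and the same 6 rats in another order (C1, P3, C5, C2, P2, P5) for 1380334_at. Since the rats fell into high and low clusters, no correlation is given. The high rats were not particular to the choroid plexus list. C2, C5, P3 and C1 were also the highest rats for the meninges markers (means of 0.28, 0.24, 0.23 and 0.15), where P5 was lowest (-0.55). For the thalamus markers the highest were C1, P3 and C5 (0.24, 0.22 and 0.17), with C2 at -0.13. Whether choroid plexus or other tissue next to the hippocampus accounts for the difference of Rbm47 was not tested.

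**Figure D3:**
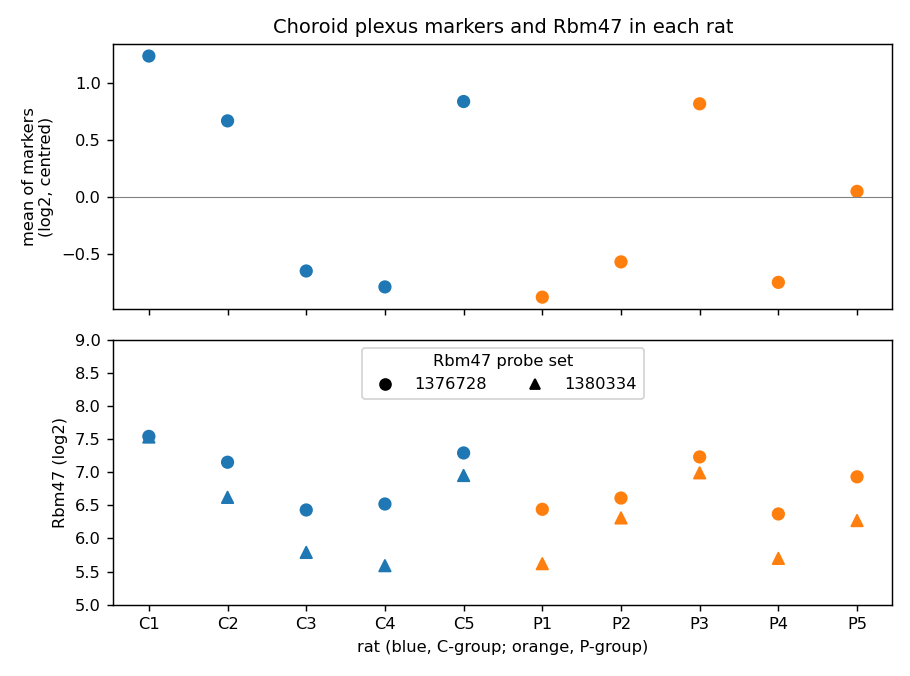
Choroid plexus markers (upper panel, mean log2 deviation of 22 variable probe sets from their means over the 10 rats) and Rbm47 (lower panel, log2 values of probe sets 1376728_at, circles, and 1380334_at, triangles) in each rat (horizontal axis; blue, C-group; orange, P-group). C1, C2, C5 and P3 are high and C3, C4, P1 and P4 low in both panels.

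Hnrnpu, a scaffold protein that binds chromatin and nascent RNA, was the only hnRNP gene called. It was 9.22, 9.06, 9.09, 9.24 and 9.16 in C1 to C5 and 8.96, 8.60, 9.06, 9.14 and 9.08 in P1 to P5. The low value of P2 stood apart from the other rats, and 3 rats of the C-group lay above every rat of the P-group. The difference was 0.19 (standard error 0.10, FDR 0.0227). It was 0.17 without C1 (FDR 0.0722) and 0.09 without P2, and the call was also lost without P2, C2, C4 or C5 (FDR up to 0.0787 over all rats left out).

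The 5 members that were lower in the C-group shared a pattern that the rest did not show. In each of them C1 was the lowest of the 10 rats and lay outside the range of the other 9, and without C1 the groups differed by -0.05 to 0.05. Celf1, which binds GU-rich sequences and counteracts Mbnl proteins on shared targets, was 9.60 in C1 and 10.35, 10.51, 10.44 and 10.29 in C2 to C5, and 10.41, 10.36, 10.51, 10.55 and 10.38 in P1 to P5. The difference was -0.21 (standard error 0.16, FDR 0.0777 for lower), and it was -0.05 without C1.

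Hnrnpl, which binds CA-rich RNA, was 10.20 in C1 and 10.90, 10.91, 10.95 and 10.93 in C2 to C5. In the P-group Hnrnpl was 10.88, 10.92, 10.90, 10.84 and 10.87 in P1 to P5. The difference was -0.10 (standard error 0.14) with C1 and 0.04 without it, and the remaining 9 rats lay within a narrow band.

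Hnrnpdl, a relative of the AU-rich element binding protein hnRNP D, was 9.38 in C1 and 9.91, 10.03, 10.01 and 10.04 in C2 to C5, and 9.79, 9.86, 10.01, 10.02 and 10.03 in P1 to P5. Rbm14, a paraspeckle protein, was 7.42 in C1 and 7.97, 8.08, 8.10 and 8.14 in C2 to C5, and 7.89, 8.12, 8.16, 8.12 and 8.03 in P1 to P5. After C1, P1 was the lowest rat in both genes. The differences of -0.07 (standard error 0.13) and -0.12 (standard error 0.14) became 0.05 and 0.01 without C1.

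Hnrnpa2b1, a splicing repressor that also carries messenger RNA into dendrites, was measured by 2 variable probe sets that moved apart in C1. Probe set 1378543_at was 6.98 in C1 and 8.02, 8.07, 8.04 and 8.19 in C2 to C5, and 7.81, 7.95, 8.19, 8.03 and 8.19 in P1 to P5. Probe set 1395561_at was 9.79 in C1 and 9.47, 9.36, 9.42 and 9.50 in C2 to C5, and 9.61, 9.28, 9.50, 9.37 and 9.34 in P1 to P5. C1 was thus the lowest of the 10 rats in the former and the highest in the latter, and P1 was next in both. The differences were -0.17 (standard error 0.23) and 0.09 (standard error 0.09), and 0.05 and 0.01 without C1. Neither probe set was called.

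**Figure D4:**
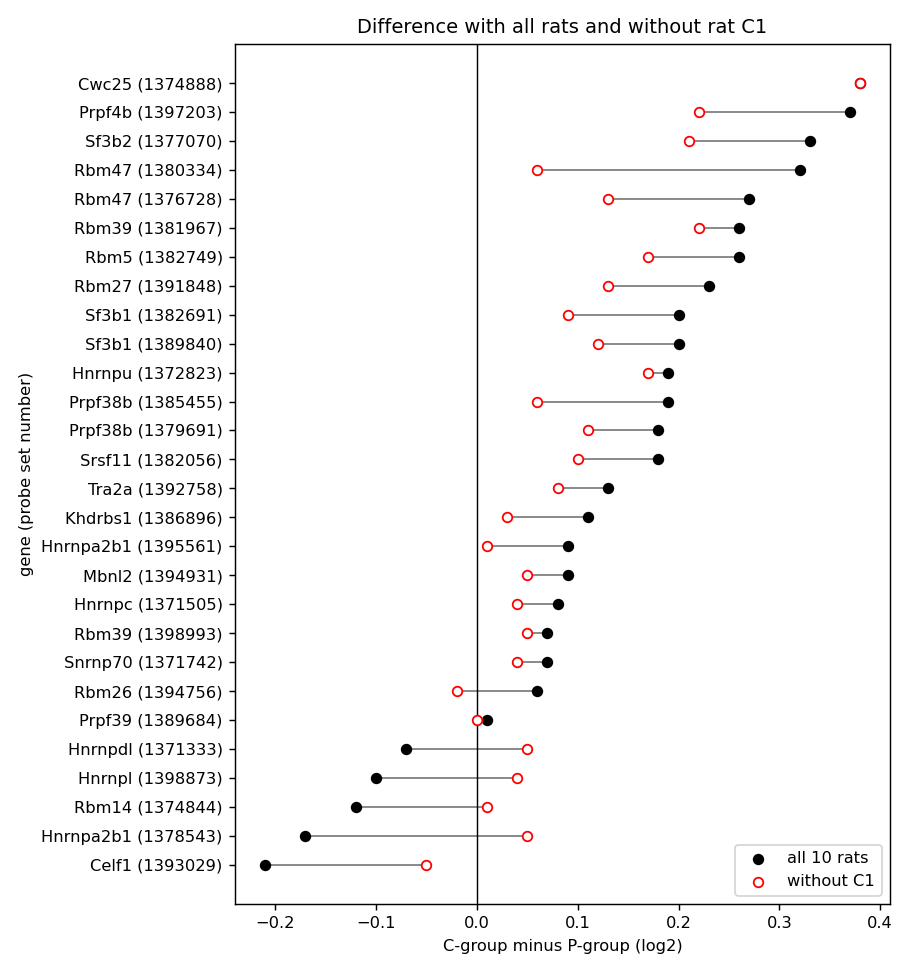
Difference between the groups (horizontal axis, C-group mean minus P-group mean, log2) of the 28 variable probe sets (vertical axis) with all 10 rats (black) and without C1 (open red). Most differences move toward 0, Cwc25 stays at 0.38, and 4 of the 5 below 0 (Hnrnpdl, Hnrnpl, Rbm14 and Hnrnpa2b1 1378543_at) move above it.

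Of the genes with other roles, Srsf11, an SR protein, differed by 0.18 (FDR 0.0549) and Tra2a, an SR-like exon enhancer, by 0.13. Khdrbs1 (Sam68) differed by 0.11, Mbnl2, which drives the adult splicing pattern in brain, by 0.09, and Hnrnpc, which binds uridine tracts, by 0.08. Snrnp70 differed by 0.07 and Rbm26 by 0.06. None was called, C1 was the highest rat in each of the 7, and without C1 their differences ran from -0.02 to 0.10.

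C1 was also the highest rat for the mean of the astrocyte (0.34), choroid plexus (1.24), microglia (0.37) and thalamus (0.24) markers. Of the 9 microglia genes, all measured, 4 had a variable probe set, and none was called. Their mean deviation ran from -0.24 to 0.37 in the C-group and from -0.07 to 0.07 in the P-group. All 5 thalamus genes were measured, 4 with a variable probe set and none called, and their mean deviation ran from -0.17 to 0.24 in the C-group and from -0.26 to 0.22 in the P-group. Which of these differences between C1 and the other rats is related to the splicing genes was not tested.

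The patterns above are represented by Prpf4b (C1 highest, with C2 and P1), Hnrnpl (C1 alone low) and Rbm47. In Rbm47 the highest rats were C1, C2, C5 and P3, as for the mean of the choroid plexus markers. Promoters are shown for these 3 genes. Each is the 250 bases before the 1 start per gene used by a table of promoters from RefSeq (assembly GRCr8), read 5′ to 3′ on the strand of the gene. That start is not the outer end of the gene, since each window lies inside the span that the RefSeq gene table gives for it. The spans are chr17:30224921-30225170 on the minus strand (Prpf4b), chr1:93228151-93228400 on the plus strand (Hnrnpl) and chr14:42515371-42515620 on the plus strand (Rbm47). Capitals mark GGGCGG and CCAAT on either strand.
Prpf4b: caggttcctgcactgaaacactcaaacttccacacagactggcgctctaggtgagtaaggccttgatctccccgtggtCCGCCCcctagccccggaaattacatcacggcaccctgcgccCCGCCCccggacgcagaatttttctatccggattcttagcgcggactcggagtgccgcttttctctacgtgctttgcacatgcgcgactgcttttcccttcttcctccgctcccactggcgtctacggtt
Hnrnpl: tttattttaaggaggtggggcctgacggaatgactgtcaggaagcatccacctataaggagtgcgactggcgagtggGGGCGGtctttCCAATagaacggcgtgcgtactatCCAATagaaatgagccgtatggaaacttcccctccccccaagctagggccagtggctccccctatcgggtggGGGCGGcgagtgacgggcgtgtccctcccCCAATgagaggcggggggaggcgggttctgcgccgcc
Rbm47: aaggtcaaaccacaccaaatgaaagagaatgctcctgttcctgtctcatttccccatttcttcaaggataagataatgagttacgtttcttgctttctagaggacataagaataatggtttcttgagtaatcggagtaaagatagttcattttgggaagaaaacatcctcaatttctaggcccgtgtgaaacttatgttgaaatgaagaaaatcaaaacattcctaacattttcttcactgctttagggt

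Prpf4b held GGGCGG 2 times, both on the opposite strand, Hnrnpl held GGGCGG 2 times and CCAAT 3 times, and Rbm47 held neither. The number of CG dinucleotides was 20 in Prpf4b, 17 in Hnrnpl and 3 in Rbm47, against a median of 5 over 33469 rat promoters of this length and of 19 over the 96 members with a promoter in the table. TATAAA, searched on both strands as well, was in none of the 21 promoters of variable members and in 8.33% of the 96, against 12.9% of all promoters. CCAAT was in 11 of the 21 and 44.8% of the 96, against 34.0% of all, and GGGCGG in 12 of the 21 and 57.3% of the 96, against 30.5%. These counts describe letters in a window. The arrays measured no binding of a factor.

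Probe sets of the same gene often disagreed on whether anything varied. Of the 112 genes, 63 had 1 probe set, of which 6 were variable, and 49 had 2 to 5. Among the 49, 16 had a variable and a constant probe set side by side, 32 had only constant ones, and Rbm47 alone had only variable ones. Where on the transcript each probe set lies is not given in the sources used here.

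Celf1 had 1 variable probe set and 4 constant ones at means from 6.92 to 10.34, whose SD was at most 0.000319. Prpf4b had 3 constant probe sets beside the called one, at means from 7.44 to 8.60. Rbm39 had 3 (8.10 to 10.45), Rbm5, Rbm27, Hnrnpu, Hnrnpdl, Rbm26 and Hnrnpa2b1 had 2 each, and Sf3b2 had 1 (at 9.30). Every gene called other than Cwc25 and Rbm47 therefore had at least 1 constant probe set beside the called one. Cwc25, Hnrnpc, Hnrnpl, Prpf39, Rbm14 and Snrnp70 had no second probe set with which to compare.

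Where a gene had a pair of variable probe sets, the pair could be compared over the 10 rats. For Prpf38b Pearson's r was 0.92 (permutation p = 5e-05, adjusted 0.00025 over the 10 correlations computed) and Spearman's rho 0.92 (p = 0.00056 by permutation, adjusted 0.0014). For Rbm39 r was 0.88 (permutation p = 0.00036, adjusted 0.0012) and rho 0.90 (p = 0.00086 by permutation, adjusted 0.00172). Without the 2 rats farthest from the median of the first probe set, which were C1 and C2 for Prpf38b and C1 and P2 for Rbm39, r was 0.89 and 0.78. In both genes the 2 probe sets put the rats in nearly the same order.

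For Sf3b1 r was 0.88 (permutation p = 0.00112, adjusted 0.00187) and rho 0.73 (p = 0.0207 by permutation, adjusted 0.0258), with r at 0.78 without C1 and P4. For Hnrnpa2b1 r was -0.77 (permutation p = 0.029, adjusted 0.0322) and rho -0.36 (p = 0.311 by permutation). Without C1 and P1 it turned to 0.52, and without C1 alone it was -0.22. The negative relation of the Hnrnpa2b1 probe sets therefore rested on these rats. The values of Rbm47 fell into clusters, and no correlation is given for it.

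**Figure D5:**
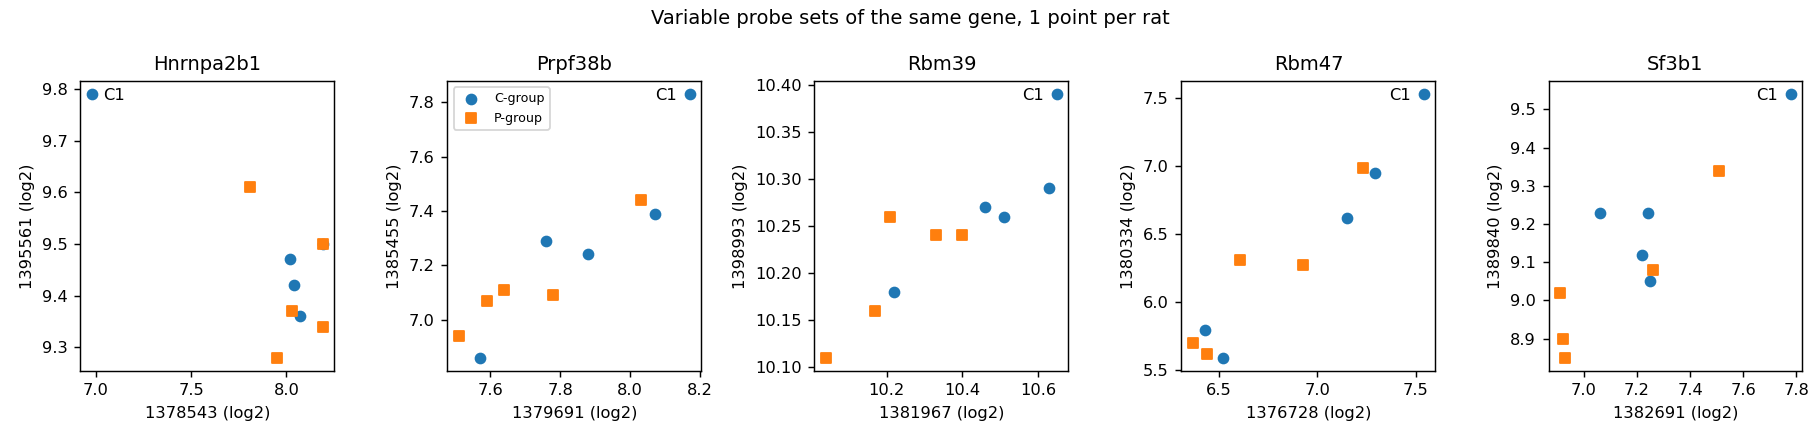
Variable probe sets of the same gene plotted against each other, 1 panel per gene (both axes in log2, named by probe set number), with 1 point per rat (circles, C-group; squares, P-group; C5 and P3 lie on the same point in the first panel). C1 is at the upper right in 4 panels and at the upper left for Hnrnpa2b1, where it is 6.98 and 9.79.

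A list of 100 other splicing genes was read for comparison, of which 89 were measured by 143 probe sets. Of these, 18 probe sets of 15 genes were variable (12.6%, against 9.36% of all probe sets). Rank products called 3 higher (2.1%), close to the 2.0% over all probe sets, and called none lower. None passed limma. The median difference of the variable ones was 0.10. In the 3 called probe sets, Luc7l3, a protein of the U1 particle, differed by 0.26 (standard error 0.16, FDR 0.0248), Srrm1, an SR-related coactivator, by 0.23 (standard error 0.13, FDR 0.0283), and Zranb2, an SR-like zinc finger protein, by 0.14 (standard error 0.09, FDR 0.0387). Without C1 the differences were 0.16, 0.12 and 0.09. Each of the 3 genes also had a constant probe set, and a second variable one of Srrm1 (1389995_at) differed by 0.17 (FDR 0.0702) and was not called.

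The low value of C1 also recurred in this list. Probe set 1383257_at of Rbfox1, a neuronal splicing regulator, was 8.36 in C1 and between 10.90 and 11.26 in the other 9 rats. Probe set 1372484_at of Ddx5, an RNA helicase, was 10.73 in C1 and between 11.53 and 11.65 in the others. The differences between the groups were -0.47 (standard error 0.53) and -0.12 (standard error 0.17), and 0.07 and 0.06 without C1. Neither was called. The other 5 probe sets of Rbfox1 and the other one of Ddx5 were constant, with the same value in C1 as in the other rats to 2 decimals.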

How the data were processed

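The deposited values were used for 10 arrays of total RNA (100 ng labeled for each). The authors used qFARMS, under R 2.7.2, to normalize and summarize them, and deposited log2 values. qFARMS itself was not run again here. Of 31099 probe sets, 57 controls were left out. Gene symbols came from the platform annotation, and all 202 member probe sets matched RefSeq (GRCr8) under the same symbol. The table held 0 columns of other samples. The precision is limited by the number of rats, 5 per group. The labels do not say more of the replicates than a number, so the limma p-values measure the spread between these samples. The FDR of rank products does not measure that spread.

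Rank products was computed without pairing (Python 3.11.15 with scipy 1.17.1, pandas 2.3.3 and numpy 2.4.6), from 25 differences over 31042 probe sets and 100 permutations of values within arrays, and called at an FDR under 0.05. The study's methods do not state the pairing or the number of permutations. Standard errors and p-values came from lmFit and eBayes of limma 3.58.1 (R 4.3.3), two-sided and with Benjamini-Hochberg adjustment over all probe sets. Correlations used 100000 resamples, two-sided. The scripts were tested on simulated data. Same-numbered rats of the groups did not all deviate together (r of their deviations from -0.39 to 0.48, with 2 of 5 rats closest to their own number), so the numbers were not taken as pairs.

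The members, the lists of other splicing genes and of cell type markers, and the tests were chosen with earlier results of these data known. The genes named are those called by rank products, the 5 largest differences in each direction and the 5 largest SDs among variable members, genes with 2 or more variable probe sets, and called genes of the other splicing list. The rule also took the probe set of the highest mean in each family, but these are not described, since levels of different probe sets are not compared. Other variable members and the genes of the other splicing list and of the marker lists without a call were added after their values were seen. Alternatives changed the pairing, the normalization, the filters on dim or invariable probe sets, the cut on SD, the variance model, the random seed and the rats used. Of the other marker lists, the endothelial one (7 genes) had no variable probe set. The median differences of the rest were 0.54 (choroid plexus), -0.51 (pineal), 0.07 (hippocampal neuron), 0.00 (interneuron), 0.25 (astrocyte), 0.04 (oligodendrocyte), 0.03 (microglia), 0.21 (meninges), 0.12 (blood) and 0.02 (thalamus).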

Additional observations from a re-analysis of the deposited data

Results flagged for a closer look

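In 6 of 56 groups of 5 rats tested among the variable members, 1 rat lay far from the others (a gap above 0.71 of the group's range). These groups are the same rats read through 28 probe sets and are not independent, so the count is not set against chance. The rat was C1 in all 6. C1 was low in Hnrnpl (10.20), Hnrnpa2b1 1378543_at (6.98), Hnrnpdl (9.38), Rbm14 (7.42) and Celf1 (9.60), and high in Sf3b1 1382691_at (7.78). No rat of the P-group was singled out in any of the 28 probe sets.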

How the results depend on the processing

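The number of members called higher by rank products, 10, was 16 with the replicate block, 4 among the brighter probe sets and 0 when only variable probe sets were ranked, and ran from 1 to 15 when a rat was left out. The number called lower, 0, was 1 with the replicate block (Celf1, FDR 0.0212) and ran from 0 to 1 when a rat was left out, with Celf1 called without C3 or C4. No member passed an adjusted limma p of 0.05 under any alternative. The members at an unadjusted limma p under 0.05, 3 in the main setting, were 14 with the replicate block and 24 with quantile normalization. Over all probe sets these counts were 915, 1728 and 1787. With the block the standard error of Sf3b2 was 0.05, against 0.18 without it, and that of Cwc25 0.10, against 0.29. For Rbm47 1380334_at it was instead larger, 0.48 against 0.42. The median difference over the variable members, 0.154, ran from 0.063 (without C1) to 0.187 (without C3) when a rat was left out and from 0.121 to 0.185 under the other alternatives. The number of genes whose probe sets disagreed, 16, was 23 with quantile normalization and 16 under every other alternative run for it.

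The direction turned without C1 in Hnrnpdl (0.054, with -0.112 as the lowest value over the rats left out), Rbm14 (0.006, lowest -0.172), Hnrnpa2b1 1378543_at (0.046, lowest -0.257), Hnrnpl (0.04, lowest -0.147) and Rbm26 (-0.018, highest 0.104). Prpf39 was -0.001 with median centering or quantile normalization and ran from -0.002 to 0.009 over the rats left out, below 0 without C1 or P2. Of 364 settings of single probe sets, 300 kept direction and call, 32 lost the call, 23 gained one and 9 turned direction.

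Over all probe sets, 620 were called higher and 129 lower. The counts were 912 and 338 with the replicate block, 157 and 37 among the brighter probe sets, and 9 and 0 among the variable ones. With a rat left out, the former ran from 61 (without C1) to 789 (without P1) and the latter from 10 (without P4) to 221 (without C3). The deposited values could not be summarized again, so the effect of qFARMS on which probe sets are constant was not tested.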

Other observations

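Among the other splicing genes, Elavl2, a neuronal RNA-binding protein, had a pair of variable probe sets that moved apart in C1, as those of Hnrnpa2b1 did. A further probe set of Elavl2 was constant. Probe set 1381677_at was 7.61 in C1, its highest rat, and between 7.04 and 7.51 in the others. Probe set 1383768_at was 8.88 in C1, its lowest rat, and between 9.42 and 9.73 in the others. P1 had the next highest value in the former, 7.51, but the highest in the latter, 9.73. The differences between the groups were 0.02 and -0.18, and neither was called. Lsm8 and Bud31, small proteins of the spliceosome, were also lowest in C1, at 8.68 and 8.67, against 9.16 to 9.85 and 9.33 to 9.59 in the other rats.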
